A study of Mus musculus with 4 samples.

Results

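The axon guidance genes examined here were 68 of the 31053 genes listed in the count tables, taken by their symbols: 7 secreted semaphorins of class 3, 13 membrane-bound semaphorins, 9 plexins, 5 ephrin-A and 3 ephrin-B ligands, 9 EphA and 5 EphB receptors, 3 Slits, 4 Robo receptors, 8 genes of the netrin, Dcc and Unc5 group, and 2 netrin-G genes. All of them except Efna4, which had 109 unique molecular identifiers (UMIs, the counted molecules) in the nuclei kept, passed a minimum of 200 UMIs, so that 67 entered the counts of where each gene was highest.

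These families are the classical cue systems of axon pathfinding. Semaphorins act through plexins, with neuropilins as co-receptors for most of the secreted class 3 members. Ephrins are membrane-anchored ligands of the Eph receptor tyrosine kinases, Slits are secreted ligands of Robo receptors, and netrins attract growth cones through Dcc and repel them through Unc5 receptors. Netrin-G proteins are tethered to the axon surface and bind the postsynaptic netrin-G ligands Lrrc4c and Lrrc4 instead of Dcc. In the adult brain the same molecules are known from synapses, myelinating glia and the vessel wall, where Robo4, Ephb4, Efnb2 and Plxnd1 are textbook endothelial genes.

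Single-nucleus RNA sequencing was performed on the brain of male C57BL/6J mice, whose age is given as 8 weeks, after an adeno-associated virus of serotype 9 had been injected into the cisterna magna. AAV-VEGF-C carried the mouse growth factor VEGF-C at full length, and AAV-CTRL carried a soluble VEGF receptor 3 ectodomain that does not bind VEGF-C, fused to an immunoglobulin tail, so both groups received a virus and neither was uninjected. Tissue of 5 mice per AAV group was pooled before nuclei were isolated, and cortical and striatal tissue of the same mice gave 1 library each, for 4 libraries in all. With 1 library per group there is no replicate error, no test was possible, and every interval below is a 95% interval for counting error alone.

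The 4 libraries held between 17168 and 23724 nuclei with median UMI counts from 2272 to 2873, and pairs of libraries shared 76 to 118 nucleus barcodes. Of 78728 nuclei, 73083 remained after doublets were removed. The region labels did not match the marker genes of the regions in a simple way: Ppp1r1b, a marker of striatal projection neurons, was at 63.1, 75.6, 18.8 and 18.5 CPM (UMIs per 1000000) in the cortex-labelled pair of libraries, AAV-CTRL before AAV-VEGF-C, and then in the striatum-labelled pair in the same sequence, an order kept for every run of 4 values below. Tcf7l2, which marks thalamic neurons, was at 43.5, 40.9, 304 and 339 CPM. The libraries labelled striatum therefore held fewer transcripts of striatal neurons and more of thalamic-type neurons than those labelled cortex, and all comparisons between regions below are comparisons between labels. Over all kept nuclei Vegfc RNA was at 12.3, 11.7, 12.9 and 11.7 CPM, with no higher level in the AAV-VEGF-C libraries. Whether transcripts of the vector were counted was not tested. The study reports more VEGF-C protein in brain extracts after AAV-mVEGF-C, by ELISA, and more Vegfc transcript in smooth muscle cells. Flt4, which encodes VEGF receptor 3, was at 3.83, 2.82, 4.25 and 3.72 CPM.

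Nuclei were clustered without the 68 genes and sorted into 23 classes that resembled known cell types by their marker genes. They comprise neurons resembling telencephalic excitatory neurons (13247 nuclei), striatal projection neurons (3747), Sst/Pvalb interneurons (1480), Vip/Lamp5 interneurons (698), thalamic-type neurons (2134), other GABAergic neurons (1100), other glutamatergic neurons (718), cerebellar granule neurons (294) and neuroblasts (697), and 16202 neurons left without a class name, called unresolved neurons here. Among the unresolved was a cluster of 3908 nuclei, counted before doublets were removed, that held 6 of the 12 thalamic-type markers but was led by the hypothalamic genes Oxt and Pmch, and another of 118 nuclei that held 5 of the 6 cholinergic markers but was led by Slc6a3. The neuroblast class was a single cluster that held 5 of the 9 neuroblast markers and 5 of the 10 markers of other GABAergic neurons. At a lower cluster resolution, a cluster with the same leading genes was named other GABAergic neurons. The sum of 12 general neuronal markers was higher in neuroblasts than in any other class, at 24878, 23985 and 26161 CPM. Whether these nuclei were immature neurons was not tested. Glial classes resembled astrocytes (9175), oligodendrocyte precursors (2011), differentiating oligodendrocytes (337) and oligodendrocytes (10601). Vascular classes resembled endothelium (2860), pericytes (469) and fibroblasts (1694), with 2 classes that carried endothelial genes beside those of pericytes (746) or smooth muscle (345). Microglia-like (2138), macrophage-like (549), ependymal-like (415) and choroid plexus-like (391) nuclei completed the set, and the word "like" is left out from here on. The level of a gene in a class is its CPM over all UMIs of that class in 1 library, given where the library held at least 50 nuclei of the class. Counts were not divided by gene length, so levels are compared for the same gene between classes and never between genes.

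Transcripts of 12 genes that mark neurons in general were counted in every other class, which bears on each low value below. Summed over these 12 genes, non-neuronal classes held from 10.9% to 68.3% of the library's own level, with a median of 33.0% over 51 pairs of class and library. How much of this was stray neuronal RNA and how much the classes' own transcription was not tested. The highest of these percentages, 47.8, 48.7, 67.5 and 68.3%, belonged to oligodendrocyte precursors, and the lowest to the smooth muscle class, at 10.9, 11.4, 12 and 12.2%.

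Neuronal classes led for 26 of the 67 genes (38.8%), against 28.9% of the 17329 genes that passed the same minimum. Glial classes led for 19 (28.4%, against 13.4% of all genes), vascular classes for 15 (22.4%, against 24.8%), immune classes for 2 (2.99%, against 17.1%) and epithelial classes for 5 (7.46%, against 15.9%). The share of genes with their highest level in a glial class was thus about double that of all genes, and the immune share was lower. When a leading class had to stand at least 2-fold above the best class of any other family, 15 genes remained neuronal (22.4%, background 8.94%), 6 glial (8.96%, background 4.02%), 9 vascular (13.4%, background 5.98%), 2 epithelial (2.99%, background 5.76%) and 0 immune (background 3.49%). The class that led most often was the small class of differentiating oligodendrocytes, with 9 of the 67 genes (13.4%, against 4.52% of all genes), followed by thalamic-type neurons with 7 (10.4%, against 2.45%) and oligodendrocyte precursors with 5 (7.46%, against 1.96%).

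**Figure D1:**
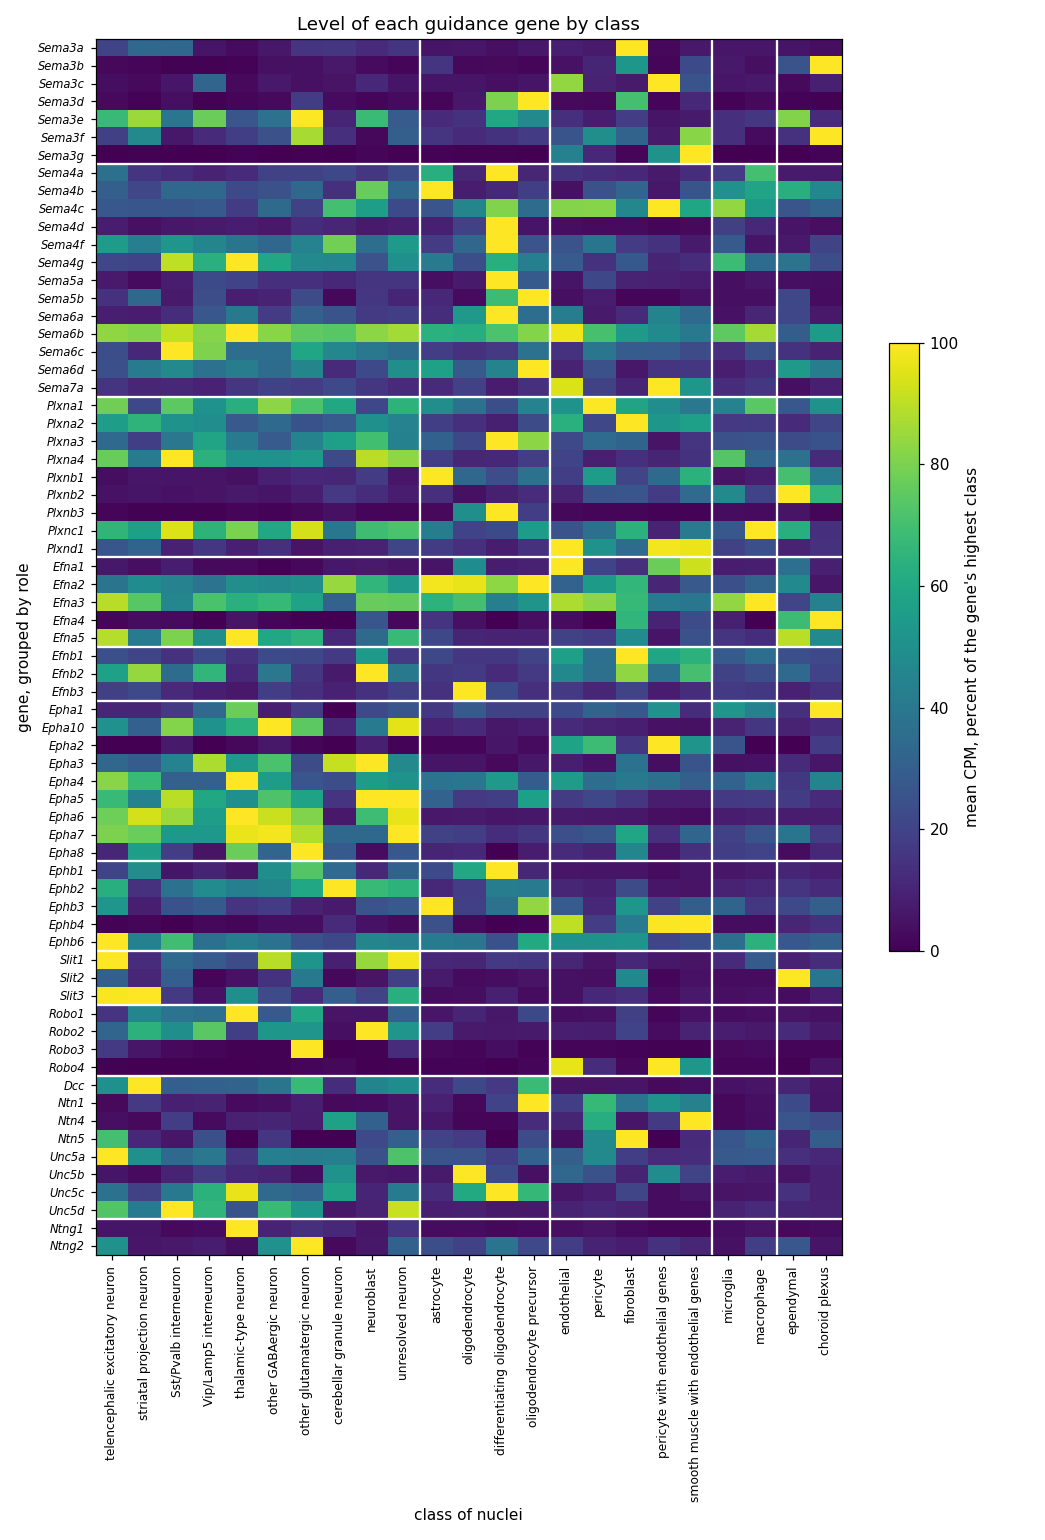
Heat map of the mean level of each of the 68 genes (rows, grouped by role) in each of the 23 classes (columns, grouped as neuronal, glial, vascular, immune and epithelial), as a percent of the gene's own highest class. Each row therefore reaches 100 once, and rows such as Plxnb3, Sema3g, Robo4 and Ntng1 are bright in very few classes, while Sema6b and Efna3 are bright in many.

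Positions below are those of the whole gene in GENCODE vM21 on GRCm38 (mm10), the build of the count files. Of the secreted semaphorins, 3 were led by vascular classes at more than 2-fold. Sema3a (ENSMUSG00000028883, chr5:13125414-13602565, plus strand), a repellent that signals through neuropilin 1 and A-type plexins, was highest in fibroblasts at 205, 208, 251 and 295 CPM, 2.97-fold above its level in Sst/Pvalb interneurons, the best class outside the vessel wall. The 2 libraries labelled striatum had the higher fibroblast values of Sema3a. Sema3c, which binds neuropilins with plexin D1 among its receptors, stood at 591, 512, 561 and 459 CPM in endothelial nuclei and at 703, 601, 656 and 569 CPM in pericytes with endothelial genes. Its best class outside the vasculature was a neuronal one, the Vip/Lamp5 interneurons, at 209 and 201 CPM in the 2 libraries labelled cortex.

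Sema3g (ENSMUSG00000021904, chr14:31217860-31230352, plus strand), a neuropilin 2 ligand known from arterial endothelium, had the largest lead of the 67 genes. It reached 138, 127, 116 and 113 CPM in smooth muscle with endothelial genes, 50.7, 46.5, 75.6 and 80.3 CPM in pericytes with endothelial genes and 64.5, 35.6, 60.8 and 57.2 CPM in endothelial nuclei. Its mean in the leading class was 73.9-fold above the best class of any other family, the neuroblasts at 1.67 CPM. The remaining secreted semaphorins led by less than 2-fold: Sema3d in oligodendrocyte precursors (276 CPM on average, with 194 in fibroblasts), Sema3e in other glutamatergic neurons (151), and Sema3b (56.9) and Sema3f (27.1) in choroid plexus.

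Of the 13 membrane-bound semaphorins, 8 were highest in a glial class, 3 in a neuronal and 2 in a vascular class. Sema4d, also known as CD100 and a ligand of plexin B1, was at 69.2, 47.8, 45.3 and 56.5 CPM in oligodendrocyte precursors, 1065, 1091, 947 and 776 CPM in differentiating oligodendrocytes and 179, 208, 172 and 208 CPM in oligodendrocytes. The lowest differentiating library thus lay above every library of the other 2 stages. Sema5a, a transmembrane semaphorin with thrombospondin repeats, was likewise highest in the middle stage, at 339.8, 287, 329 and 325 CPM in precursors, 1091, 1012, 1225 and 1201 CPM in the differentiating class and 61.5, 67.0, 105 and 98.5 CPM in oligodendrocytes. Its relative Sema5b was highest 1 stage earlier, at 264, 304, 279 and 272 CPM in precursors, 139, 199, 239 and 189 CPM in the differentiating class and 11.1, 8.30, 7.80 and 6.38 CPM in oligodendrocytes.

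Sema6a, a ligand of plexins A2 and A4, was at 752, 664, 524 and 616 CPM in differentiating oligodendrocytes and 309, 344, 367 and 358 CPM in oligodendrocytes, with 221, 255, 324 and 287 CPM in endothelial nuclei. Sema7a, which is anchored by a lipid and binds plexin C1 and integrin beta 1, was vascular: 319, 259, 299 and 291 CPM in pericytes with endothelial genes and 282, 251, 299 and 269 CPM in endothelial nuclei, 4.55-fold above its best non-vascular class. Sema6c was the one membrane semaphorin that a neuronal class led by more than 2-fold, at 26.4, 25.8 and 48.5 CPM in Sst/Pvalb interneurons of the 3 libraries with enough nuclei, and in the libraries labelled cortex alone this lead shrank to a log2 fold of 0.17. The other 7 membrane semaphorins led by 1.02 to 1.86-fold, with Sema4a and Sema4f in differentiating oligodendrocytes, Sema4b in astrocytes, Sema6d in oligodendrocyte precursors (885 CPM), Sema4c in pericytes with endothelial genes, and Sema4g and Sema6b in thalamic-type neurons.

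Plexins, the receptors of these ligands, were split between families. Plxnb3 (ENSMUSG00000031385, chrX:73757090-73772514, plus strand), a receptor of Sema5a, was low outside the oligodendrocyte lineage, at 13.8 CPM or less on average. It was at 41.7, 54.4, 46.8 and 51.1 CPM in precursors, 243, 261, 275 and 269 CPM in differentiating oligodendrocytes and 126, 113, 146 and 136 CPM in oligodendrocytes, and its leading mean was 19.0-fold above the best class of another family. Sema5a and its receptor Plxnb3 were therefore highest in the same small class, though as sums over nuclei and not necessarily in the same nuclei.

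**Figure D2:**
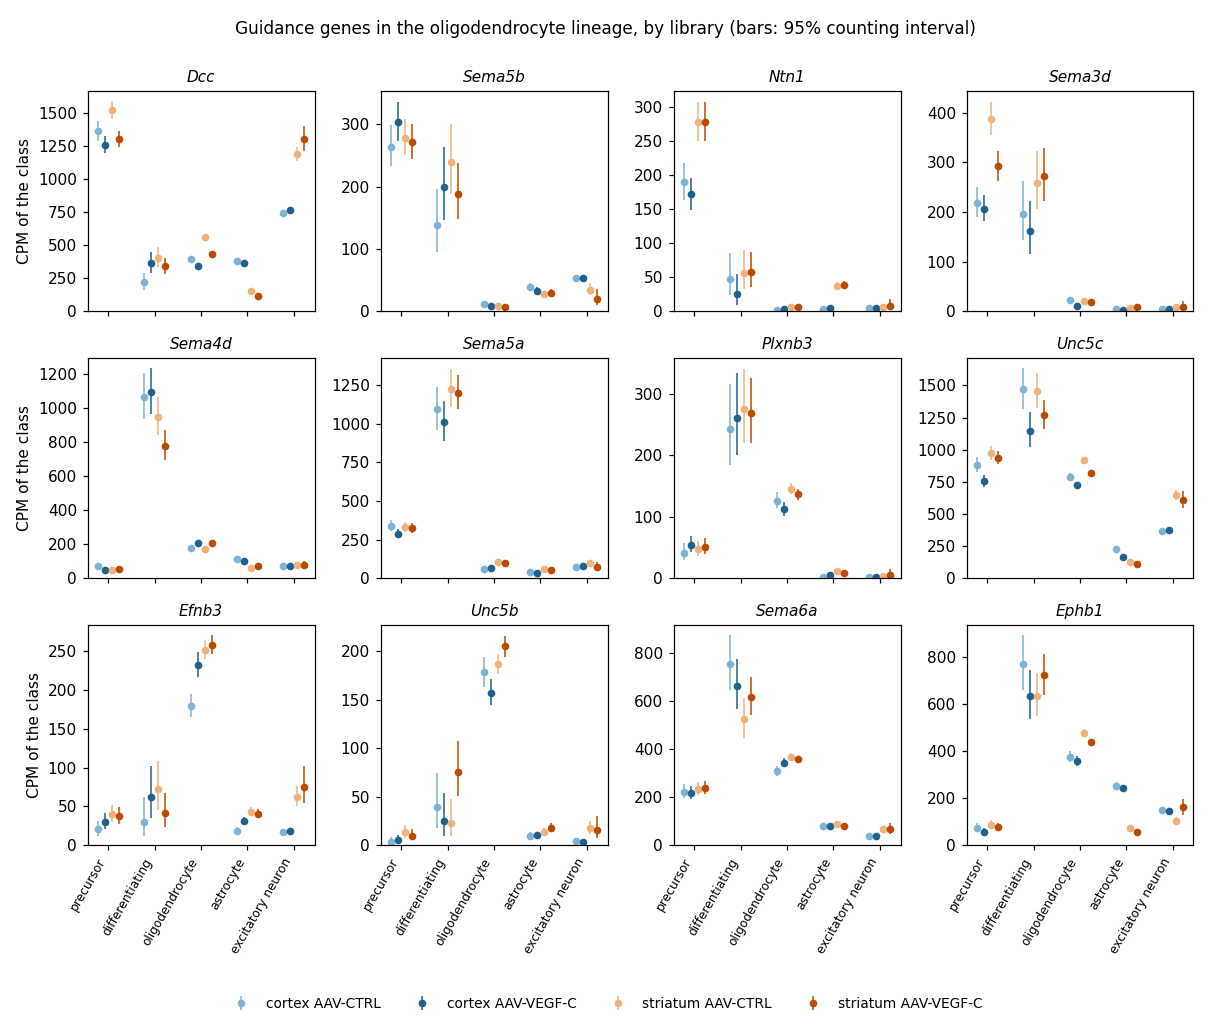
Levels of 12 guidance genes in the 3 stages of the oligodendrocyte lineage, with astrocytes and telencephalic excitatory neurons for comparison. The y axis is CPM of the class, each point is 1 library coloured by its labels, and bars are exact 95% Poisson intervals for counting error. Dcc, Sema5b and Ntn1 are highest in precursors, Sema4d, Sema5a, Sema6a, Plxnb3 and Ephb1 in the differentiating class, and Efnb3 and Unc5b in oligodendrocytes.

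Plxnd1 (ENSMUSG00000030123, chr6:115954811-115995005, minus strand), the Sema3e receptor known from endothelium, was at 74.7, 70.3, 70.4 and 51.5 CPM in endothelial nuclei and 58.9, 58.9, 82.9 and 61.5 CPM in pericytes with endothelial genes. In striatal projection neurons, the best class outside the vessels, its mean was 21.5 CPM, so that the vascular mean was 3.1-fold higher. Plxnb2, a receptor of class 4 semaphorins, led in ependymal nuclei at 288, 224 and 226 CPM in 3 libraries, with 115, 159, 145 and 228 CPM in choroid plexus and 99.8, 106, 142 and 115 CPM in microglia. The other 6 plexins led by 1.06 to 1.54-fold: Plxna1 in pericytes, Plxna2 in fibroblasts (421 CPM), Plxna3 in differentiating oligodendrocytes, Plxna4 in Sst/Pvalb interneurons (595 CPM, with 436 in microglia), Plxnb1 in astrocytes (113 CPM) and Plxnc1 in macrophages (94.3 CPM).

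The promoters of 3 genes with such restricted levels are given here, 2 from the vascular and 1 from the oligodendrocyte genes. They are the 250 bases before the transcript start in RefSeq on GRCm38.p6, 5′ to 3′ on the strand of the gene. Capitals mark AGGAAG or its complement CTTCCT, the core of sites bound by ETS factors, in the 2 vascular genes, and ACAAAG, a core of sites bound by SOX factors, in the oligodendrocyte gene. Both motifs were searched on both strands, and the window of Plxnb3 also holds CTTCCT, left in lower case.
Sema3g, chr14:31217623-31217872, plus strand: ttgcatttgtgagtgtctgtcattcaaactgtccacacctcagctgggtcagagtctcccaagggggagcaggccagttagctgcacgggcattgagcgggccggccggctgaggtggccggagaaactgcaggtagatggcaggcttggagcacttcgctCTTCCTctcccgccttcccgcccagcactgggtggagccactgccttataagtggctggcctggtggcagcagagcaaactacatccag
Plxnd1, chr6:115995006-115995255, minus strand: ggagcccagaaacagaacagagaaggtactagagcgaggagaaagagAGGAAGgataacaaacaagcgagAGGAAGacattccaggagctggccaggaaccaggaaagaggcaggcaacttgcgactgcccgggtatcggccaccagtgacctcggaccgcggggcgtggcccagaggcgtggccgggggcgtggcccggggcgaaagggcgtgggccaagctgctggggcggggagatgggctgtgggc
Plxnb3, chrX:73756853-73757102, plus strand: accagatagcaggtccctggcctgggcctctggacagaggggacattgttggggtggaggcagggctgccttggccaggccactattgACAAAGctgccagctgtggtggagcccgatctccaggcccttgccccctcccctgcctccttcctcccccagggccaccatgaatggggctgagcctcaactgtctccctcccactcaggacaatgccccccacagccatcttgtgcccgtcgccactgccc
Sequences were found for 58 of the 68 genes. AGGAAG or its complement lay in the windows of 5 of the 9 genes that vascular classes led by more than 2-fold (Efna1, Plxnd1, Robo4, Sema3a and Sema3g), of 2 of 4 glial and of 2 of 13 neuronal genes, and in 32.3% of all 27025 promoters. ACAAAG or its complement lay in 1 of the 9, 1 of the 4 and 0 of the 13, and in 18.6% of all promoters. These matches describe letters in a window, on few genes, and say nothing of binding.

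Among the A-type ephrins, ligands tethered by a lipid anchor, Efna1 was the one with a lead above 2-fold. It was highest in endothelial nuclei at 35.8, 28.7, 23.5 and 27.8 CPM, on 29 to 35 UMIs per library, 2.05-fold above oligodendrocytes. Efna2, Efna3 and Efna5 led by 1.12 to 1.18-fold, in oligodendrocyte precursors, macrophages and thalamic-type neurons, and Efna4 was too sparse to place. The macrophage lead of Efna3 rested on 42.4, 50.8, 9.88 and 17.4 CPM, a spread wider than its lead over telencephalic excitatory neurons.

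The 3 B-type ephrins, transmembrane ligands, each led in another family. Efnb1 was highest in fibroblasts at 49.8, 75.3, 51.6 and 52.3 CPM, 1.87-fold above neuroblasts. Efnb2, the arterial ephrin of textbook angiogenesis, was highest in neuroblasts at 145, 131 and 33.2 CPM, where the library labelled striatum AAV-CTRL stood apart from the other 2. It reached 82.4, 64.3, 83.8 and 113 CPM in fibroblasts, 72.1, 80.6, 95.1 and 98.8 CPM in striatal projection neurons and 65.5, 43.6, 45.6 and 36.8 CPM in endothelial nuclei, so that the order of its upper classes could not be told from the spread of the libraries. Efnb3 was highest in oligodendrocytes at 179.6, 232, 252 and 258 CPM, against 30.4, 62.2, 72.1 and 41.4 CPM in the differentiating class and 20.3, 29.7, 40.1 and 37.4 CPM in precursors. Unlike Sema4d and Sema5a, it was highest in the last stage in each of the 4 libraries.

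Of the 9 EphA receptors, 7 were highest in a neuronal class. Epha6 (ENSMUSG00000055540, chr16:59653483-60605531, minus strand) led in thalamic-type neurons at 1129.9 and 1014 CPM in the 2 libraries labelled striatum, with 948, 889, 1112 and 1069 CPM in striatal projection neurons. Its best class outside neurons held 92.8 CPM, and in no non-neuronal class did it exceed the share of its library level that the 12 neuronal markers had (3.02% to 23.5%, 0 of 51 pairs). Epha10, a member without kinase activity, was highest in other GABAergic neurons at 113, 143, 206 and 172 CPM, 6.39-fold above macrophages. Epha3, a receptor of ephrin-A5, was highest in neuroblasts at 202, 146 and 387 CPM, and it led by 2.65-fold.

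Epha8 was low, at 26.1 and 28.9 CPM in other glutamatergic neurons of the 2 libraries labelled striatum, a lead of 2.17-fold over fibroblasts, which were themselves the highest class in the libraries labelled cortex alone. Epha2, the main receptor of ephrin-A1, was the vascular exception of the group and had few counts: 15.3, 5.16, 23.3 and 23.8 CPM in pericytes with endothelial genes on 5 to 19 UMIs per library, and 13.3, 4.95, 10.4 and 10.6 CPM in endothelial nuclei. Ligand Efna1 and receptor Epha2 thus both led in vascular classes. Epha4 in thalamic-type neurons (468 CPM, with 257 in endothelial nuclei), Epha5 (639 CPM) and Epha7 (232 CPM) in unresolved neurons, and Epha1 in choroid plexus (6.68 CPM) led by 1.29 to 1.82-fold.

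EphB receptors were mixed. Ephb4, the venous partner of ephrin-B2, was vascular at 28.1, 48.7, 63.7 and 55.3 CPM in smooth muscle with endothelial genes, 56.5, 41.3, 55.2 and 41.4 CPM in pericytes with endothelial genes and 43.0, 38.6, 50.4 and 45.0 CPM in endothelial nuclei, 4.06-fold above astrocytes. Ephb2, a receptor at glutamatergic synapses, was highest in cerebellar granule neurons at 154 and 108 CPM in the libraries labelled striatum, on 38 and 29 UMIs. Ephb1 led in differentiating oligodendrocytes (690.3 CPM) by 1.36-fold over other glutamatergic neurons, Ephb3 in astrocytes by 1.90-fold and the kinase-inactive Ephb6 in telencephalic excitatory neurons by 1.55-fold.

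Slits, the secreted ligands of Robo receptors, came from different classes. Slit1 was highest in telencephalic excitatory neurons at 106, 96.3, 154 and 159 CPM, and within that class it ranged from 44.1 to 375 CPM over the 9 clusters. Slit3 (ENSMUSG00000056427, chr11:35121224-35708507, plus strand) was at 1177, 1116, 936 and 914 CPM in striatal projection neurons and 717, 639, 1319 and 1433 CPM in excitatory neurons, with 144 CPM in fibroblasts as the best class outside neurons. The 2 neuronal leaders of Slit3 did not differ beyond the spread of their libraries. Slit2 (ENSMUSG00000031558, chr5:47983138-48307733, plus strand) was led by ependymal nuclei, at 174, 1088 and 1314 CPM in the 3 libraries with at least 50 of them, followed by 383, 391, 383 and 447 CPM in fibroblasts and 242, 245, 485 and 369 CPM in choroid plexus. The ependymal lead of Slit2 belonged to the libraries labelled striatum: in the cortex AAV-CTRL library ependymal nuclei were below fibroblasts, and in the libraries labelled cortex alone fibroblasts were the highest class, by a log2 fold of 0.56 over Sst/Pvalb interneurons.

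Robo receptors divided into 3 neuronal genes and 1 vascular gene. Robo1 (ENSMUSG00000022883, chr16:72308306-73046095, plus strand), the broad Slit receptor, was at 3899.8 and 3746 CPM in thalamic-type neurons, 1549, 1334, 2239.9 and 1886 CPM in striatal projection neurons and 710.0, 619, 1053 and 955 CPM in oligodendrocyte precursors. Precursors and fibroblasts held more of it than of the neuronal markers in every library, by the least in precursors of the libraries labelled striatum. Robo1 was at 105, 92.3, 78.2 and 69.2% of its library level in precursors and 98, 89.4, 66.8 and 52.2% in fibroblasts, where the 12 neuronal markers were at 47.8, 48.7, 67.5 and 68.3% and 28.8, 30.4, 27.5 and 25.9%. Robo2 led in the class named neuroblasts at 1256, 1692 and 836 CPM, 4.93-fold above fibroblasts. That class also held markers of other GABAergic neurons.

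Robo3, which acts in commissural axons, was concentrated in 2 clusters. The first was a cluster of other glutamatergic neurons whose leading genes included Gpr151, Nwd2, Chrnb4, Chrna3 and Tac2. There it was at 271 CPM, against 8.13 CPM in the other cluster of the class, and the class as a whole had 142 and 134 CPM in the libraries labelled striatum. The second was a cluster of telencephalic excitatory neurons at 82.4 CPM, with Robo3 itself among its leading genes. In the excitatory class as a whole Robo3 was at 39.7, 36.4, 9.30 and 8.94 CPM, and the 2 libraries labelled striatum were low on 15 and 5 UMIs. Its lead of 25.8-fold over other families became a log2 fold of 1.83 in the libraries labelled cortex, in which telencephalic excitatory neurons were highest.

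Robo4 (ENSMUSG00000032125, chr9:37401897-37415115, plus strand), the endothelial member that differs from the others in lacking most of the Slit-binding domains, lies next to Robo3 on chromosome 9 on the opposite strand. Its level in endothelial nuclei was 105 CPM (95% interval 86.0 to 128, 103 UMIs) in the cortex AAV-CTRL library and 105, 93.1, 91.2 and 73.6 CPM over the 4 libraries, with 83.6, 103, 96.0 and 94.1 CPM in pericytes with endothelial genes. In oligodendrocytes it was at 1.01, 0.859, 0.624 and 1.30 CPM. The vascular mean was 19.4-fold above the best class of another family. Within the endothelial class the 3 clusters held 106, 54.5 and 95 CPM, and the middle one, with Vwf and Nos3 among its leading genes, was also the lowest for Sema3c (591, 269 and 593 CPM) and Sema7a (279, 159 and 318 CPM). The endothelial markers as a whole also stood least above the rest in that cluster, and its median UMI count was the lowest of the 3, at 0.412 of the library median against 0.54 and 0.714.

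**Figure D3:**
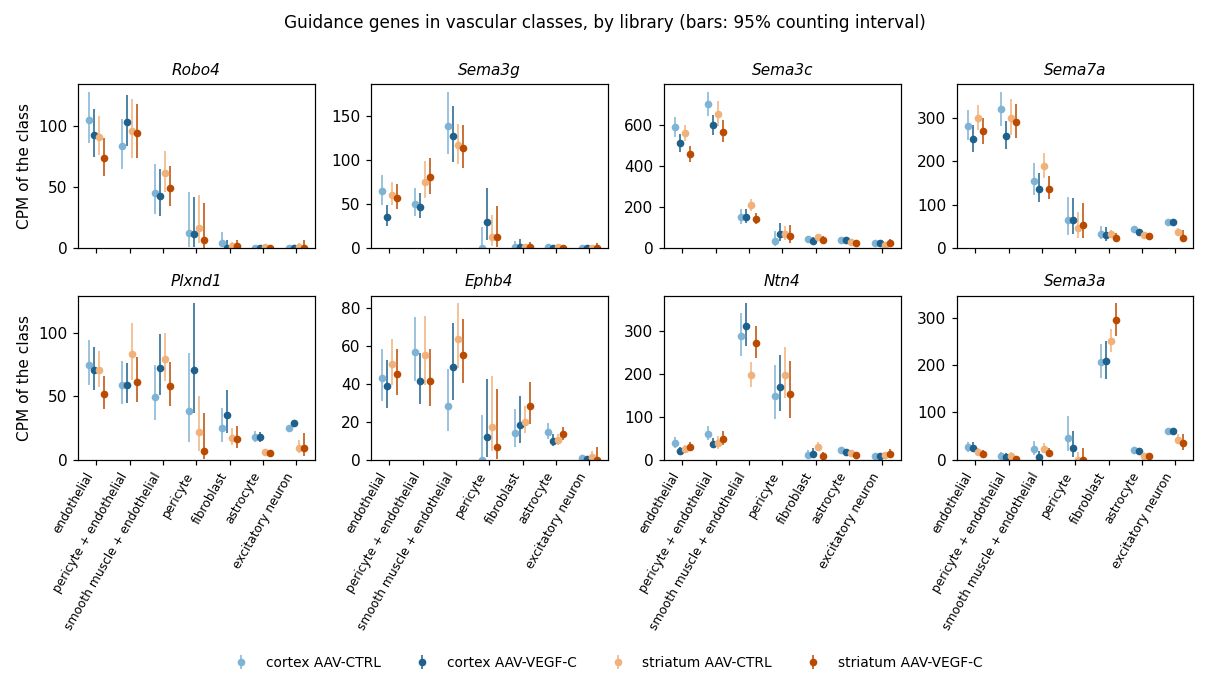
Levels of 8 guidance genes in 5 vascular classes, with astrocytes and telencephalic excitatory neurons for comparison. The y axis is CPM of the class, each point is 1 library coloured by its labels, and bars are exact 95% Poisson intervals for counting error. Robo4, Sema3c, Sema7a, Plxnd1 and Ephb4 are high in the 3 classes that carry endothelial genes, Sema3g and Ntn4 are highest in smooth muscle with endothelial genes, and Sema3a is high in fibroblasts only among the classes shown.

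The netrin, Dcc and Unc5 group had 3 neuronal, 3 glial and 2 vascular leaders, and 2 of its 8 genes, Unc5a and Unc5d, stood more than 2-fold above other families. Unc5d, a repulsive netrin receptor, was at 687, 688 and 1433 CPM in Sst/Pvalb interneurons and 752, 767, 615 and 597 CPM in excitatory neurons, where the clusters ranged from 119 to 1328 CPM. Its lead over other families was 8.16-fold, and like Epha6 it never exceeded the share of the neuronal markers outside neurons (0 of 51 pairs). Unc5a was highest in excitatory neurons at 47.6, 44.0, 76.3 and 87.6 CPM, 2.09-fold above pericytes. Outside neurons Unc5a exceeded the share of the neuronal markers in 41 of 51 pairs, and Ntng2 and Sema6c, also led by neuronal classes, each did in 42.

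Dcc (ENSMUSG00000060534, chr18:71253634-72351069, minus strand), the attractive netrin receptor, was at 2075, 2108, 2081 and 1747 CPM in striatal projection neurons and at 1366, 1262, 1526 and 1307 CPM in oligodendrocyte precursors, a lead of 1.47-fold. In differentiating oligodendrocytes it was at 217, 365, 406 and 339 CPM, below precursors in every library. Its ligand Ntn1 was itself highest in precursors, at 189, 171, 277 and 278 CPM, with 122, 135, 149.8 and 207 CPM in pericytes, so that netrin-1 and its receptor Dcc had their highest non-neuronal levels in the same class. Of the precursor values of Ntn1, those of the 2 libraries labelled striatum were the higher ones. Ntn4, a netrin of basement membranes, led in smooth muscle with endothelial genes at 289, 314, 198 and 274 CPM. Its lead was 1.75-fold over cerebellar granule neurons at 154 CPM. Unc5c led in differentiating oligodendrocytes (1335 CPM, with 1288 in thalamic-type neurons), Unc5b in oligodendrocytes (182 CPM) and Ntn5, at 6.60 CPM, in fibroblasts.

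Netrin-G1 and netrin-G2 were highest in different neurons. Ntng1 (ENSMUSG00000059857, chr3:109780040-110144011, minus strand), known from thalamocortical axons, was at 3381 and 3562 CPM in thalamic-type neurons, 19.4-fold above the best class outside neurons. No other neuronal class came near this level, since unresolved neurons, the next, held 534, 598, 473 and 491 CPM. Ntng2 was highest in other glutamatergic neurons at 134 and 182 CPM and stood at 91.1, 86.7, 78.7 and 68.0 CPM in excitatory neurons. It was not confined to neurons, with 101, 116, 159 and 221% of its library level in differentiating oligodendrocytes. Within the excitatory class it was concentrated in 1 cluster, in which it was itself the leading gene and which held Nr4a2 and Oprk1 among its leaders, at 1130.2 CPM against 6.76 to 211 CPM in the others.

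Ligands and receptors of the same pathway had the same leading class in some cases, as Sema5a and Plxnb3, and different ones in others. Sema4d led in differentiating oligodendrocytes and its receptor Plxnb1 in astrocytes. Sema7a led in vascular classes and its receptor Plxnc1 in macrophages, though by only 1.06-fold, while Itgb1, its other receptor, led in smooth muscle with endothelial genes at 399 CPM. The ligands of netrin-G1 and netrin-G2, Lrrc4c and Lrrc4, led in oligodendrocyte precursors (5185 CPM) and Sst/Pvalb interneurons (198 CPM). These are sums over classes and say nothing of protein or contact.

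The first comparison asked whether the AAV label went with a difference in these genes within a class. Pairs of gene and class with at least 50 UMIs in the 2 libraries together were compared, and a difference counted when it reached 1.5-fold. Among the libraries labelled cortex, 23 of 632 pairs were higher (3.64%, against 2.83% of all gene and class pairs) and 29 lower (4.59%, against 2.42%) under AAV-VEGF-C. Among those labelled striatum, 21 of 714 were higher (2.94%, against 3.32%) and 48 lower (6.72%, against 3.51%). The medians over the guidance gene pairs were -0.04 and -0.06 on the log2 scale, against 0.00 for all pairs under either label. Pairs past the fold rested on few counts, with a median of 79 and 88 UMIs per pair. The interval excluded a ratio of 1 in 35 of 52 and 46 of 69 of them. These pairs had been selected by size, and the same share over all genes is not given here. Nothing about the guidance genes as a group follows from that share. Genes of 1 class share nuclei and libraries, so these pairs are not independent.

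Past the fold in the same direction under both region labels were 2 of 465 pairs (0.430%, against 0.329% of all pairs), and both were lower under AAV-VEGF-C. Efnb1 in endothelial nuclei was at 46.0 to 28.7 CPM from AAV-CTRL to AAV-VEGF-C in the libraries labelled cortex, on 45 and 29 UMIs, and at 33.1 to 21.3 CPM in those labelled striatum, on 48 and 26 UMIs. The log2 ratios were -0.68 (95% interval -1.41 to 0.02) and -0.64 (95% interval -1.39 to 0.08), so that each interval included 0. Epha3 in other GABAergic neurons was at 286 to 189 CPM and 137 to 85.2 CPM, with log2 ratios of -0.60 (95% interval -1.13 to -0.07) and -0.69 (95% interval -0.96 to -0.42). That class was not the same mixture in all libraries: the cortex-labelled AAV-CTRL nuclei came mostly from 1 of its 4 clusters and the striatum-labelled ones from the other 3, and at a lower cluster resolution the ratios of Epha3 were -0.54 and -1.51, the first under 1.5-fold. At that resolution the class had also taken in the neuroblasts, the class with the highest Epha3, so it was not the same set of nuclei. Efnb1 was at -0.71 and -0.65 there.

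The largest single ratios were of genes with few counts in the class. Among the libraries labelled cortex these were Robo1 in choroid plexus at 123 to 50.5 CPM (log2 ratio -1.28), Robo1 in pericytes with endothelial genes (1.26), Unc5c in choroid plexus (1.22), Ntn4 in striatal projection neurons (-1.09) and Ntng1 in fibroblasts (1.08). Among those labelled striatum Slit3 in ependymal nuclei was higher, at 11 to 61.3 CPM and a log2 ratio of 2.47 (95% interval 1.36 to 3.77). Ntn4 in fibroblasts was lower at 30.4 to 9.05 CPM (-1.75), as were Sema5a in cerebellar granule neurons (-1.62), Ntng2 in other GABAergic neurons (-1.56) and Slit2 in smooth muscle with endothelial genes (-1.51).

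Among the 9 genes that vascular classes led by more than 2-fold, 7 had enough counts in endothelial nuclei under both labels, and 6 of them were lower under AAV-VEGF-C in both. For scale, 17 of the 37 guidance genes with enough counts in endothelial nuclei (45.9%) and 30.2% of all 7519 such genes were lower by any fold under both labels. Robo4 had log2 ratios of -0.18 (95% interval -0.60 to 0.24) and -0.31 (95% interval -0.71 to 0.09). For Sema3c they were -0.21 (95% interval -0.38 to -0.04) and -0.29 (95% interval -0.45 to -0.13), and this was the one gene of the 7 whose interval excluded 0 under both labels. Sema7a (-0.17 and -0.15), Plxnd1 (-0.09 and -0.45) and Ephb4 (-0.15 and -0.16) were lower by less than 1.5-fold. Sema3g was at -0.86 (95% interval -1.49 to -0.24) in the libraries labelled cortex and at -0.09 (95% interval -0.56 to 0.38) in those labelled striatum, and Efna1 at -0.32 and 0.24. These 7 genes were chosen by their leading class, after their ratios had been seen. The same share over all genes that vascular classes led by 2-fold is not given here, so 6 of 7 has no matching reference. Over the endothelial class, 1 of 40 guidance genes was higher (against 2.62% of all genes) and 6 lower (against 3.11%) past 1.5-fold under the cortex label, and the median log2 ratio was -0.13 against -0.01 for all genes. In those labelled striatum 1 of 43 was higher (against 2.31%) and 5 lower (against 3.79%), with a median of -0.11 against -0.03. The endothelial markers summed to 15225, 14104, 15031 and 14779.6 CPM in these nuclei and the astrocyte markers to 1833, 2694, 1799.7 and 1967 CPM. Under both region labels the first were lower and the second higher with AAV-VEGF-C, and their part in these ratios was not tested.

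**Figure D4:**
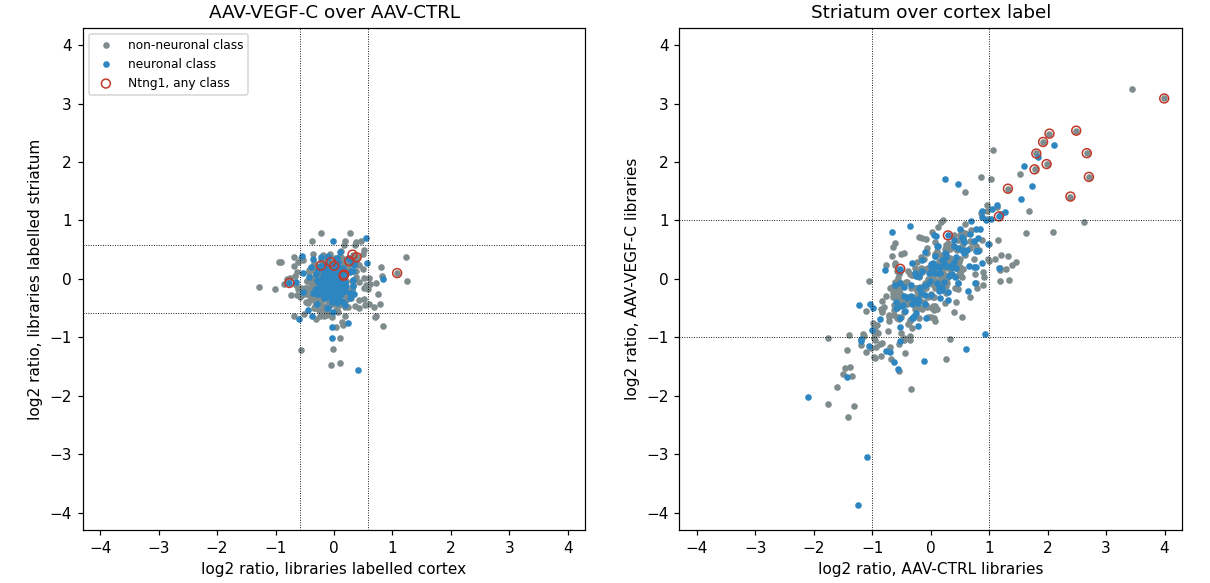
Log2 ratios of guidance genes in each class, with 1 point per pair of gene and class. Each plotted pair had at least 50 UMIs over the 2 libraries of each ratio together. Left, AAV-VEGF-C over AAV-CTRL in the libraries labelled cortex (x axis) and labelled striatum (y axis), with dotted lines at 1.5-fold. Right, striatum over cortex label under AAV-CTRL (x axis) and under AAV-VEGF-C (y axis), with dotted lines at 2-fold and Ntng1 circled. The left cloud is centred near 0 with 2 pairs in the lower left corner, while the right cloud runs along the diagonal.

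The second comparison was between the region labels, within 15 classes of which all 4 libraries held at least 50 nuclei. Unresolved neurons, at 1424, 1751, 7024 and 6003 nuclei, also met this minimum but were left out of the comparison. A gene counted when it differed by at least 2-fold in the same direction under both AAV labels. Higher in the libraries labelled striatum were 28 of 477 pairs (5.87%, against 1.42% of all pairs), and lower were 20 (4.19%, against 1.83%). Both shares were above those of all pairs. Of the 28 higher pairs 12 were Ntng1 in as many classes, which left 16 without it. The higher pairs came from 10 genes and the lower ones from 13.

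Ntng1 was highest in a neuronal class that only the libraries labelled striatum held in number, and it was the gene that differed in most classes. Over all kept nuclei it was at 164, 191, 691 and 839 CPM, a log2 difference of 2.08 under AAV-CTRL and 2.13 under AAV-VEGF-C. In endothelial nuclei it was at 38.9, 46.5, 218 and 269.8 CPM, in microglia at 48.8, 60.8, 167 and 223 CPM and in macrophages at 17.0, 44.4, 270.1 and 377 CPM. Set against the library level, these were 23.7, 24.3, 31.6 and 32.2% in endothelial nuclei and 29.8, 31.7, 24.2 and 26.6% in microglia, shares that differed far less between the labels than the levels did. Macrophages were the exception, with shares of 10.3, 23.2, 39.1 and 45.0%, the first on 2 UMIs. In all 51 pairs of non-neuronal class and library the share was between 7.12% and 45.0% with a median of 23.9%, and it was above that of the 12 neuronal markers in 7. The part of free neuronal RNA in the Ntng1 values of these classes was not tested.

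**Figure D5:**
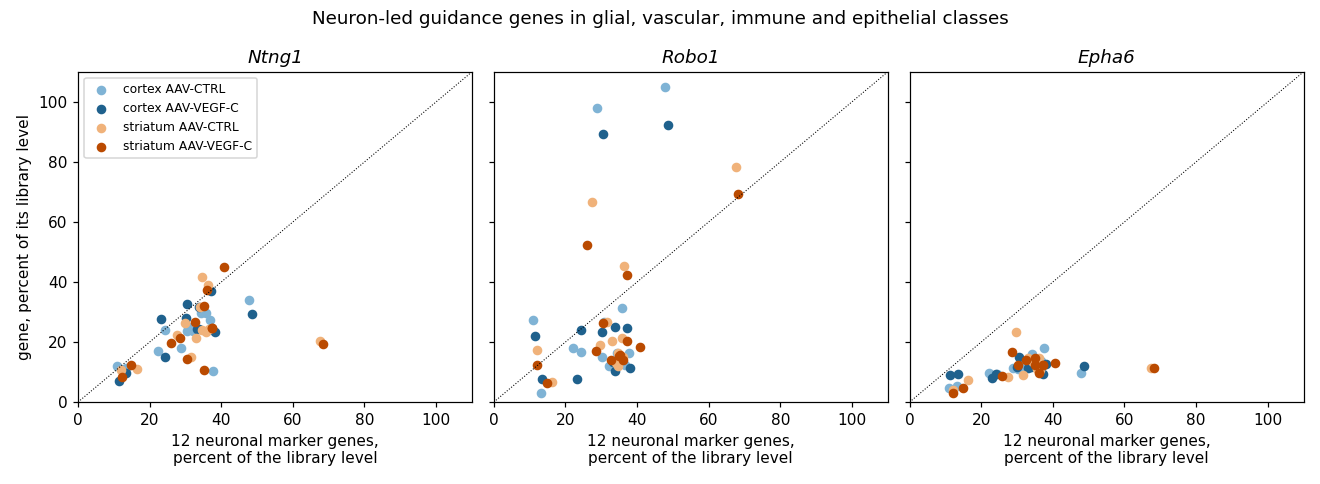
Level of Ntng1, Robo1 and Epha6 in the non-neuronal classes, as a percent of the gene's level over the whole library (y axis), against the same percent for the sum of 12 neuronal marker genes (x axis). Each point is 1 class in 1 library, and the dotted line marks equal percentages. Ntng1 lies above the line in 7 of 51 points and Epha6 in 0, while Robo1 lies above it in 14. Among these 14 are all points of oligodendrocyte precursors, fibroblasts and smooth muscle with endothelial genes.

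Astrocytes held 6 of the 48 pairs. Ntn1 was higher in the libraries labelled striatum, at 3.40, 4.05, 36.8 and 38.7 CPM, with log2 ratios of 3.44 (95% interval 2.60 to 4.41) and 3.26 (95% interval 2.55 to 4.05). Ephb1 went the other way at 251, 242, 74.2 and 55.0 CPM, as did Dcc at 381, 369, 149.8 and 117 CPM. Sema3a and Plxnd1 were lower too, at 20.7, 18.5, 7.91 and 6.52 CPM and 17.8, 17.6, 5.89 and 4.89 CPM. The 2 labels drew on different astrocyte clusters, 1 with Gldc and Mertk and the other with Agt, Itih3 and Slc6a11 among its leading genes, and between these clusters Ntn1 was at 4.77 and 39.8 CPM, Ephb1 at 248 and 47.6 CPM, and Dcc at 379 and 108 CPM. The 14 marker genes of telencephalic excitatory neurons also differed in astrocytes, at 3440.2, 3488, 1347 and 1314 CPM in sum, with all 14 counted in each library. Their part in the lower values of Ephb1, Dcc, Sema3a and Plxnd1 was not tested. The thalamic-type markers summed to 3157, 3066, 4475 and 4369 CPM in astrocytes, higher like Ntn1 in the libraries labelled striatum, and their part in Ntn1 was not tested either.

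Oligodendrocytes came from a single cluster in all libraries in the main clustering, and from 2 when the guidance genes were kept for clustering, and held 9 of the 48 pairs. Robo1 was higher at 212, 168, 609.7 and 583 CPM with log2 ratios of 1.52 (95% interval 1.40 to 1.65) and 1.79 (95% interval 1.67 to 1.92), beside a library level of 676, 670.4, 1346 and 1380.1 CPM that differed by 0.99 and 1.04 on the log2 scale. As a share of that library level Robo1 in oligodendrocytes was 31.4, 25.1, 45.3 and 42.2%, below the neuronal markers in the libraries labelled cortex and above them in those labelled striatum. Sema4g was higher on few counts, at 5.72, 4.3, 11.7 and 14.1 CPM. Lower in the libraries labelled striatum were Plxna2 at 85.1, 71.0, 39.4 and 29.7 CPM, Slit3 at 62.2, 50.4, 22.9 and 21.6 CPM, Efnb2 at 26.2, 25.8, 9.51 and 8.98 CPM and Ephb6 at 27.2, 25.2, 9.67 and 8.11 CPM, with Sema3a and Plxnd1.

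The summed markers of telencephalic excitatory neurons were lower in the same nuclei as these 6 genes. That sum was high outside neurons too, at 3712 CPM in microglia against 4602 CPM in excitatory neurons of the cortex AAV-CTRL library. In oligodendrocytes the 14 excitatory neuron markers summed to 2386, 2280.2, 565 and 541 CPM, with all 14 counted in each library, and their part in these 6 genes was not tested. When doublets were left in, the ratios of Plxna2 (log2 -0.43 and -0.73) and Slit3 (-0.22 and -0.82) no longer reached 2-fold, nor did that of Sema3a under AAV-VEGF-C (-0.42). In endothelial nuclei Slit3 was also lower, at 68.6, 70.3, 27.6 and 15.5 CPM, where the excitatory markers summed to 2962, 3111, 1171 and 1137 CPM.

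Robo1 passed 2-fold in endothelial nuclei (80.8, 90.1, 177 and 212 CPM), differentiating oligodendrocytes (113, 162, 360.3 and 362 CPM) and choroid plexus (123, 50.5, 256 and 233 CPM) as well. In these 3 classes it stayed at 7.54% to 26.8% of its library level. In smooth muscle with endothelial genes, Epha5 and Unc5c were lower at 71.3, 68.2, 35.2 and 30.2 CPM and 108, 113, 47.3 and 51.6 CPM. Endothelial nuclei of the 2 labels came mostly from different clusters with 1 cluster shared, and microglia likewise divided into 1 cluster for each label.

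Telencephalic excitatory neurons held 8 pairs, and there the labels stood for different neurons. The libraries labelled cortex had 5911 and 6898 nuclei from 9 clusters, those labelled striatum 332 and 106, mostly from 2 of these clusters. Slit2 was higher at 139, 139.9, 405 and 361 CPM, Efnb3 at 17.5, 17.8, 62.6 and 75.1 CPM, Ntng1 at 119, 134, 267 and 281 CPM and Unc5b at 4.01, 3.28, 17.4 and 16.1 CPM. Efnb3 and Unc5b were highest in oligodendrocytes, whose markers summed to 542, 520.5, 1157 and 1395 CPM in these neurons, and their part in the 2 genes was not tested. At a lower cluster resolution the Ntng1 difference was 0.42 and 0.66, no longer 2-fold. Sema4g and Plxna3 were higher on 8 to 21 UMIs in the libraries labelled striatum. Robo3 was lower with log2 ratios of -2.09 (95% interval -2.94 to -1.36) and -2.02 (95% interval -3.65 to -0.80), and so was Plxnd1 (-1.42 and -1.68).

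Striatal projection neurons were drawn from the same 2 clusters under both labels, but in different shares. Before doublets were removed, the larger held 1163, 1491, 390 and 297 nuclei and the other 171, 164, 99 and 61. The part of this mixture in the values below was not tested. In striatal projection neurons Sema6a was at 32.7, 26.1, 71.5 and 63.0 CPM and Ntn1 at 26.7, 19.6, 61.6 and 42.5 CPM. Each was higher in the 2 libraries labelled striatum than in either of the others. The log2 ratios were 1.13 (95% interval 0.82 to 1.44) and 1.27 (95% interval 0.93 to 1.60) for Sema6a. For Ntn1 they were 1.2 (95% interval 0.86 to 1.54) and 1.12 (95% interval 0.71 to 1.51). Over all kept nuclei Sema6a was at 81.7, 82.1, 187 and 185 CPM and Ntn1 at 16.3, 13.0, 29.8 and 30.5 CPM, and the oligodendrocyte markers summed to 495, 488, 1048 and 1011 CPM in these neurons. Their part in the values of Sema6a and Ntn1 was not tested. Sema4g was higher on 18 to 32 UMIs. Ephb6 was lower at 21.8, 31.9, 9.51 and 15.4 CPM and Robo3 at 12.9, 15.0, 5.43 and 1.02 CPM, the last on 2 UMIs in the striatum AAV-VEGF-C library with a log2 ratio of -3.88 (95% interval -6.94 to -1.99).

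The remaining ratios among the 5 largest of each AAV label were those of Ntng1 in macrophages (3.99 and 3.09), choroid plexus (2.71 under AAV-CTRL), pericytes (2.67 under AAV-CTRL) and endothelial nuclei (2.54 under AAV-VEGF-C), of Plxnb3 in astrocytes under AAV-CTRL (2.62 (95% interval 1.49 to 3.99)), and of Ntng2 in other GABAergic neurons under AAV-VEGF-C (-3.05). Plxnb3 in astrocytes was at 1.98 and 12.1 CPM under AAV-CTRL, and the ratio under AAV-VEGF-C (0.98) fell just short of 2-fold.

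Other GABAergic neurons differed in 5 genes, with Slit2 at 56.3, 65.1, 188 and 196 CPM and Unc5d at 428, 400.3, 874 and 819 CPM higher, and Epha3 at 286, 189, 137 and 85.2 CPM, Slit3 at 355, 299, 154 and 147 CPM and Ntng2 at 108, 143, 51.1 and 17.3 CPM lower. The 4 clusters of this class differed widely in the same genes, Slit3 from 17.5 to 652 CPM, Unc5d from 47.9 to 1079.6 CPM and Ntng2 from 4.38 to 278 CPM. The libraries differed in their shares of these clusters, and the label and the cluster cannot be told apart in the class as a whole. At the lower resolution the difference of Epha3 under AAV-CTRL was -0.09 and that of Slit3 -0.46 and -0.63, all under 2-fold, in a class that had also taken in the neuroblasts and was no longer the same set of nuclei.

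Co-receptors, partners and effectors of the same pathways were counted from lists drawn up by function. For scale, 28.9% of all genes were highest in neuronal, 13.4% in glial, 24.8% in vascular, 17.1% in immune and 15.9% in epithelial classes. Of 15 co-receptors and other receptors, 6 were highest in neuronal, 4 in glial, 3 in vascular and 2 in immune classes. Nrp1, the co-receptor of Sema3a, led in macrophages at 397 CPM and Nrp2, the co-receptor of Sema3g, in other glutamatergic neurons at 328 CPM, while Dscam, a netrin receptor, led in oligodendrocyte precursors at 2803 CPM and the integrin Itga1 in pericytes with endothelial genes at 553 CPM. Of 16 other ligands and partners, 6 were neuronal, 5 glial and 5 vascular, among them the netrin antagonist Draxin in neuroblasts at 42.9 CPM, 12.1-fold above the next family. Of 36 intracellular effectors, 10 were neuronal, 12 glial, 9 vascular, 3 immune and 2 epithelial. Fyn, a kinase downstream of Dcc, led in differentiating oligodendrocytes at 2591 CPM (7.92-fold), and Srgap2, a GTPase-activating protein that binds Robo1, in microglia at 2007 CPM (4.22-fold).

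Under AAV-VEGF-C the co-receptors were higher in 3 (1.64%) and lower in 5 (2.73%) of 183 pairs in the libraries labelled cortex, against 2.83% and 2.42% of all pairs. They were higher in 4 (1.91%) and lower in 10 (4.78%) of 209 in those labelled striatum, against 3.32% and 3.51%. The partners were higher in 5 (2.46%) and lower in 7 (3.45%) of 203 pairs under the cortex label, and higher in 5 (2.19%) and lower in 4 (1.75%) of 228 under the striatum label. The effectors were higher in 8 (1.62%) and lower in 9 (1.82%) of 494 pairs, and higher in 4 (0.73%) and lower in 20 (3.65%) of 548. Most of these shares were below those of all pairs. Under both labels, no pair of these lists was higher, and 0 co-receptor, 1 partner and 2 effector pairs were lower. The number of list pairs compared under both labels is not given here. Over all genes, 174 of 98189 such pairs were higher and 149 lower. Between the region labels, 5 co-receptor pairs (3.4%), 1 partner pair (0.606%) and 10 effector pairs (2.54%) of 147, 165 and 393 were higher, against 1.42% of all pairs. Lower were 3 (2.04%), 1 (0.606%) and 24 (6.11%), against 1.83%.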

How the data were processed

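Per the labels and the study's methods, nuclei of pulverised frozen tissue were sequenced with the 10x Genomics 3′ chemistry, and the authors counted reads on mm10 with Cell Ranger. The file headers name version 5.0.1 and the submitters' processing notes 5.1.1. Whether introns were counted is not given in the sources used here. The deposited values are raw UMI counts per gene and nucleus, with 78728 barcodes, the number of nuclei that the study gives. The lowest total of a nucleus in the files was 719 UMIs, above the minimum that the study set.

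From these counts, doublets were called with Scrublet in scanpy 1.11.5 (expected rate 8%) and left out together with clusters of which at least 40% were called, which removed 933 to 2314 nuclei per library. The nuclei kept had 58167093 to 70302334 UMIs per library. Of the remaining nuclei, 72048 entered the classes compared, and red blood cell, nasal epithelium and unnamed clusters did not. Clustering used 5000 variable genes without the guidance genes, 50 components, 15 neighbours and the Leiden algorithm at a resolution of 1.2 (leidenalg 0.10.2). A non-neuronal cluster took a class name where at least 3 markers and 35% of the list were 2-fold above the rest and in at least 10% of its nuclei. A neuronal cluster had to pass 35% of 12 neuronal markers and then 4 markers and 25% of a neuron type's list. The thalamic-type name was withheld where hypothalamic genes such as Oxt or Pmch led, and the cholinergic name where Slc6a3, Slc18a2, Ddc or Th led. This rule was set after the clusters had been seen. The guidance genes, marker lists and pathway lists were chosen with earlier results of these data known.

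UMIs were summed per class and library and divided by the class total (CPM). Intervals are exact Poisson for a level and exact conditional binomial for a ratio, at 95%, and a count of 0 was set to 3 counts. They cover counting error only. A gene's leading class has the highest mean over libraries with at least 50 nuclei, each library weighted equally. Ratios needed 50 UMIs over both libraries. In place of tests, which 1 library per group does not allow, ratios past 1.5-fold between AAV labels and 2-fold between region labels were counted. The ratio step was tested on simulated counts. Genes were named where a class led by 2-fold, in role groups of up to 4 genes, where past the fold under both labels, and for the 5 largest ratios of a comparison. Other names were chosen after the values were seen. Python 3.11.15, numpy 2.4.6, scipy 1.17.1, pandas 2.3.3 and matplotlib 3.10.9 were used. Alternatives concerned doublets, clustering with the guidance genes, resolution 0.8, thinning to 1000 UMIs, count minimums, centring, fold and libraries, the last added after seeing the data. The integrated object and clusters of the authors were not used here.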

Additional observations from a re-analysis of the deposited data

Results flagged for a closer look

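For 3 of 465 pairs of gene and class the AAV comparison passed 1.5-fold in opposite directions under the region labels. The same share over all genes is not given here, so nothing about the guidance genes as a group follows. The log2 ratio of AAV-VEGF-C over AAV-CTRL for Dcc in fibroblasts was 0.70 (95% interval 0.20 to 1.21) in the libraries labelled cortex and -0.65 (95% interval -1.06 to -0.25) in those labelled striatum. For Efnb3 in microglia the ratios were 0.72 (95% interval -0.08 to 1.56) and -0.63 (95% interval -1.39 to 0.12). For Epha6 in pericytes with endothelial genes they were 0.83 (95% interval 0.19 to 1.5) and -0.80 (95% interval -1.69 to 0.07). The difference between the labels was not tested in any of the 3, since each group was 1 library.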

How the results depend on the processing

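No paired analysis was possible because each group was 1 library, and for the same reason no replicate could be left out. The number of genes led by neuronal (23 to 30), glial (17 to 19) and vascular classes (11 to 19) stayed within 1.5 times the reported counts under all alternatives. The immune count was 1 in place of 2 with no doublets left out, with the guidance genes kept for clustering, at a resolution of 0.8, after thinning to 1000 UMIs and without the library labelled striatum AAV-CTRL. The epithelial count was 3 in place of 5 at a minimum of 1000 UMIs per gene. The count of pairs past the fold under both region labels, reported as 2, was 1 with the guidance genes kept, 1 at a resolution of 0.8, 1 with ratios centred on the class median, 25 at a minimum of 10 UMIs, 0 at 200 UMIs and 21 at the smaller fold tried. The AAV counts moved as follows, in the order cortex higher, cortex lower, striatum higher and striatum lower. They were 81, 95, 75 and 137 at a minimum of 10 UMIs, 3, 1, 1 and 11 at 200 UMIs, and 68, 92, 77 and 137 at the smaller fold. After thinning, which leaves fewer UMIs and nuclei, 8 were higher in cortex, 11 higher in striatum and 28 lower in striatum. Between region labels, 16 pairs were higher after thinning, and 13 higher and 8 lower at a minimum of 200 UMIs. These minimums and folds change how many pairs qualify by their construction. The cause of the other moves was not tested. Of values for single genes, 726 stayed within their counting interval, or for leading families within 2-fold with the family unchanged, and 40 did not. Single-gene values under a changed count minimum or fold equal the main ones by construction, and they are counted among the 726. No value past its threshold changed sign. In the libraries labelled cortex alone, fibroblasts replaced ependymal nuclei for Slit2 and neurons for Epha8. Epha3 in other GABAergic neurons of the libraries labelled striatum was at -1.31 and -1.51 under the 2 other clusterings, where the class had taken in the neuroblasts and was therefore another set of nuclei. Of the pairs past 1.5-fold between AAV labels, the counting interval excluded a ratio of 1 in 35 of 52 under the cortex label. Under the striatum label it did so in 46 of 69. The same share over all genes is not given here.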

Other observations

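A pair of clusters with nasal epithelium genes, 397 of their 429 nuclei in the library labelled striatum AAV-CTRL, entered no comparison. One had Gfy, Stoml3 and Umodl1 among its leading genes and the other Cyp2g1, Muc16 and Sec14l3, and the values given here are sums over both. Several guidance genes were high in them, with Epha5 at 726 CPM, Robo2 at 721 CPM, Plxna4 at 704 CPM and Efna5 at 498 CPM. Sema6a was at 318 CPM, Sema3a at 137 CPM, Ntn1 at 125 CPM, Efna3 at 69.4 CPM and Plxna3 at 46.7 CPM. Nearly all of these nuclei come from 1 library.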
